A study of Mus musculus with 6 samples.

Results

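The genes described here are β-catenin (Ctnnb1), the DNA-binding factors Lef1, Tcf7l1 and Tcf7l2 that recruit it, the destruction complex genes Apc, Axin1, Gsk3b and Csnk1a1, and the nuclear adaptors Bcl9 and Bcl9l. They were chosen by name, with earlier results of these data known. A probe set is a group of short probes that reads a transcript together. It was counted when the platform annotation gave it exactly 1 gene symbol, equal to 1 of these names. All 10 genes were measured, by 33 of 45037 probe sets, and each gene is read by its brightest probe set unless another is named. The data are Affymetrix arrays of the uterus of females 4 weeks old, 3 labelled control and 3 labelled mutant. The mutant mice carried Pgr cre/+ and Ctnnb1f(ex3)/+, so that Cre, made only where the progesterone receptor gene Pgr is active, removes exon 3 of 1 Ctnnb1 allele there. The labels call the control mice wild type, while the methods describe them as Pgr cre/+ and as Ctnnb1 f(ex3)/+ mice. By the methods, each genotype's RNA was a pool of 3 uteri, so the arrays of a group may not be separate animals. The p-values then measure only the spread between arrays, which may be technical. Some genes differed widely between the control arrays, such as the cell cycle gene Mki67 (intensities of 240.3, 27.5 and 250.2). The source of this spread was not tested.

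The deposited values were linear intensities with a median of 7.23 to 7.42 on each array, and an intensity under 16, where changes can be understated, was found at 62.3 to 62.6% of probe sets. All 6 genes of uterine identity on the marker list were above 16 on at least some arrays. Of the 6, 1 was called higher and 2 lower by limma. Pgr itself, which drives Cre in the mutant, fell from a log2 intensity of 10.40 to 9.43 (adjusted p = 0.0027), or to 51.1% of the control level. The mutants carry a cre allele of Pgr, while the labels call the controls wild type. For Pgr, this allele and the stabilized β-catenin therefore cannot be told apart. Emx2 fell from 8.24 to 7.62 (adjusted p = 0.00376) and Hand2 rose from 8.31 to 9.79 (adjusted p = 0.00315).

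In cells without a Wnt signal, the scaffold proteins APC and AXIN hold β-catenin so that casein kinase 1α, made from Csnk1a1, and GSK3β can phosphorylate it, and the marked protein is ubiquitinated and destroyed. The residues they phosphorylate lie in the part of β-catenin encoded by exon 3, and protein without it escapes destruction. Stable β-catenin enters the nucleus, binds a TCF/LEF factor on DNA, and is joined there by BCL9 or BCL9L, which connect it to Pygopus. In the uterus this pathway is known for its roles in Müllerian duct and gland development.

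Of the 10 genes, Ctnnb1 and Lef1 were higher in the mutant uterus, Tcf7l1 and Bcl9 were lower, and the remaining 6 were not called (limma, adjusted p under 0.05). Across all 18193 genes, 5.61% were called higher and 6.36% lower. Every mutant array lay above every control array for Ctnnb1 and Lef1 (14.9% of all genes did so), and below them for Tcf7l1, Bcl9 and Csnk1a1 (17.4% of all genes). The median log2 fold change was 0.03 over the members and -0.01 over all genes. Because these are whole uteri, fewer cells of a type and less RNA per cell cannot be told apart.

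**Figure D1:**
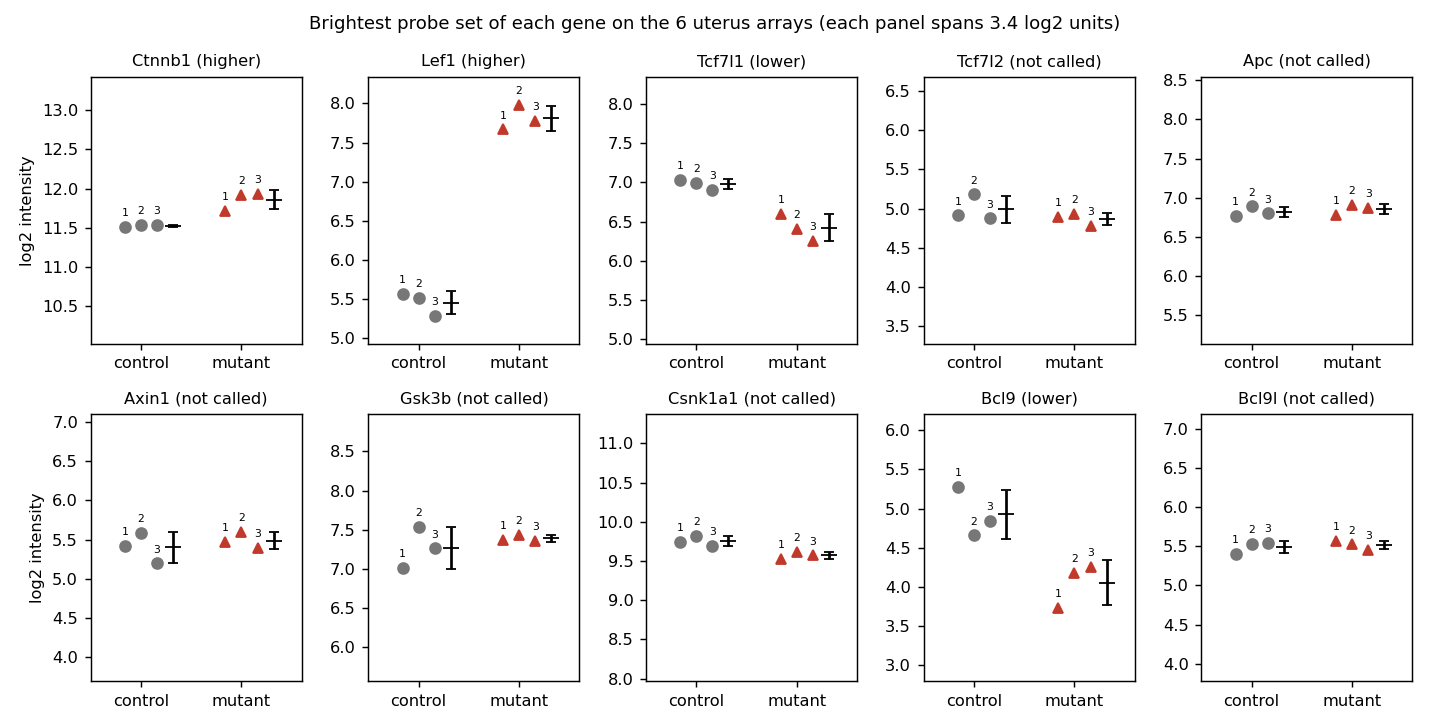
Each panel plots the log2 intensity (y axis) of the brightest probe set of 1 gene on the 3 control (grey circles) and 3 mutant (red triangles) arrays, with replicate numbers above the points and the mean and SD as black bars; all panels span the same range. Lef1 moves from 5.46 to 7.81, and the shifts of Ctnnb1 (0.33), Tcf7l1 (-0.56) and Bcl9 (-0.87) are smaller.

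The stabilized gene itself rose only slightly. The brightest Ctnnb1 probe set read 2919.6, 2970.1 and 2964.4 (intensity) on the control arrays, in replicate order, and 3367.0, 3879.1 and 3911.7 on the mutant arrays. The control arrays were nearly equal (log2 SD 0.014, n = 3), and mutant replicate 1 lay about midway between them and the other mutant arrays. This is 1.26-fold, with a log2 fold change of 0.33 (95% interval 0.13 to 0.53, adjusted p = 0.0498 from limma). The call of Ctnnb1 was lost in 11 of 17 alternatives, and over all 17 the adjusted p ranged from 0.0172 to 0.155. Dropping control replicate 1, 2 or 3 ended the call (0.32, 0.33 and 0.33, with adjusted p of 0.106 to 0.155), and so did dropping mutant replicate 2 or 3 (0.30 and 0.29, with adjusted p = 0.147 and 0.141).

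The other Ctnnb1 probe sets read the same direction. The middle probe set had intensities of 337.2, 349.1 and 391.3 in the controls and of 401.0, 481.4 and 517.2 in the mutants, and its groups did not overlap. The dimmest probe set had intensities of 22.7, 21.1 and 21.2 in the controls and of 29.5, 37.9 and 42.0 in the mutants, or 1.67-fold. With all 45037 probe sets adjusted together, only this dimmest probe set was called (0.74, 95% interval 0.44 to 1.04, adjusted p = 0.0134), while the brightest and the middle were at 0.33 (adjusted p = 0.0697) and 0.37 (adjusted p = 0.107). Mutant replicate 1 was the lowest mutant array on all 3. Whether the probe sets differ from each other in their change was not tested, and the exons that their probes match were not given in the sources used here.

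Lef1 was the member with the largest change. LEF1 is a DNA-binding partner of β-catenin, and its gene is itself widely used as a readout of the pathway. Its brightest probe set read 47.4, 45.7 and 39.2 on the control arrays and 203.4, 252.2 and 219.9 on the mutant arrays. The groups were far apart against a log2 SD of 0.15 in the controls and 0.16 in the mutants. Lef1 was thus 5.10-fold higher, with a log2 fold change of 2.35 (95% interval 2.08 to 2.62, adjusted p = 9.6e-05 from limma). This call held in all 17 alternatives, at log2 fold changes of 1.58 to 2.45 and an adjusted p of at most 0.0324. The lowest value, 1.58, came from the mean of its probe sets. The dim Lef1 probe set lay below 16 on every array and rose from 3.06, 3.57 and 3.80 to 5.14, 6.79 and 6.38 (log2 fold change 0.81, adjusted p = 0.00886 over all probe sets).

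Lef1 is also a gene of T cells, so T cell markers were read beside it. Of 9 listed, 7 were measured, 6 lay below 16 on all 6 arrays and none was called (limma; 1 was lower at an unadjusted p under 0.05, and none by the methods' test). Their summed intensity was 46.9 to 53.6 in the controls and 42.0 to 47.6 in the mutants. The T cell sum was not higher in the mutants, but it was made up of dim markers, where changes can be understated. The part of T cells in the change of Lef1 was not tested.

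Tcf7l1 moved the other way. TCF7L1, also called TCF3, acts mostly as a repressor of target genes until β-catenin displaces it. Its brightest probe set had intensities of 130.7, 127.5 and 120.0 in the controls and of 96.8, 84.9 and 76.5 in the mutants. The highest mutant array stayed under the lowest control array. The mutant level was 68.0% of the control level, a log2 difference of -0.56 (95% interval -0.80 to -0.31, adjusted p = 0.0151 from limma). The other Tcf7l1 probe set had intensities of 104.8, 115.1 and 107.6 in the controls and of 83.7, 69.4 and 77.9 in the mutants. Both probe sets were called lower when all probe sets were adjusted together (-0.56 and -0.51, adjusted p = 0.0171 and 0.0183; 3.41% of all probe sets were called lower and 3.49% higher). Dropping control replicate 1 ended the gene's call (-0.53, adjusted p = 0.0692), as did dropping mutant replicate 2 (-0.55, adjusted p = 0.0563), and adjusted p ranged from 0.00751 to 0.0961 over 17 alternatives.

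Tcf7l2, also called TCF4, the main partner of β-catenin in intestinal epithelium, did not pass the test. Its brightest probe set had intensities of 30.1, 36.2 and 29.3 in the controls and of 29.7, 30.5 and 27.4 in the mutants, and the groups overlapped. The log2 fold change was -0.12 (95% interval -0.37 to 0.12, adjusted p = 0.528 from limma). Its other 3 probe sets had mean intensities under 16 and log2 fold changes of 0.00 to 0.07. The remaining family gene, Tcf7, was sought too, but the platform annotation gave its symbol to no probe set, so it was not measured.

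The stretches before the start sites of the 4 called genes are shown because their transcripts changed, so that the letters bound by TCF/LEF proteins can be read against them. RefSeq promoter entries on GRCm38.p6 matched 6 of the 10 genes. The motif CTTTG was searched on both strands in the 250 bases before each start, and capitals mark each match. For a gene with several starts the most upstream is shown. The windows are chr3:131110047-131110296 (plus strand) for Lef1, chr6:72789046-72789295 (minus strand) for Tcf7l1, chr3:97227365-97227614 (minus strand) for Bcl9 and chr9:120933150-120933399 (plus strand) for Ctnnb1, each written 5′ to 3′ on the gene's strand.
Lef1: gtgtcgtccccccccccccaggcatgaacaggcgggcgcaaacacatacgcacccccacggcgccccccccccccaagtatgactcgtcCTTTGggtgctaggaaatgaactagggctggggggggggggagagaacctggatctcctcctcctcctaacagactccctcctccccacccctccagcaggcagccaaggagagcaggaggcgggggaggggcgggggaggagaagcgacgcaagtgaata
Tcf7l1: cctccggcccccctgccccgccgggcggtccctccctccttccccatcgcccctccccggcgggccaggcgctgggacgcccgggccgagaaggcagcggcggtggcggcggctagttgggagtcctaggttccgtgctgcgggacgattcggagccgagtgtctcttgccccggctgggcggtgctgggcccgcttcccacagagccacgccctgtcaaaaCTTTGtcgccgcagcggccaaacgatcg
Bcl9: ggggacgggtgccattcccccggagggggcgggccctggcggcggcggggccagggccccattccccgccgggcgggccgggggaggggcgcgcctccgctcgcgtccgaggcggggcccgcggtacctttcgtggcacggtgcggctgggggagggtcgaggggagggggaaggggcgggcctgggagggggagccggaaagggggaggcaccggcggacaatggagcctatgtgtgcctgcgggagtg
Ctnnb1: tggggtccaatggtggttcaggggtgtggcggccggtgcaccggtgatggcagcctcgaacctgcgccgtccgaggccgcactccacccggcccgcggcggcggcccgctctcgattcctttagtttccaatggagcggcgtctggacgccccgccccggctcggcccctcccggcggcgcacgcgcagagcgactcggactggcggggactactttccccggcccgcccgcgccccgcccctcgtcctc

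The Lef1 window held CTTTG once, 161 bases before the start, and the Tcf7l1 window held it once, 28 bases before the start. The Bcl9 and Ctnnb1 windows held none. Lef1 had 4 listed starts, and each of their windows held 1 to 3 matches. Of 32851 windows of all genes, 48.6% held CTTTG on either strand, so a match in a window is common. The longer motif CTTTGAT, searched likewise on both strands and holding the shorter one, stood in 3.21% of all windows. It stood in 0 of the 11 windows of the 6 members with a promoter entry, which include Tcf7l2 and Gsk3b. These counts describe letters in short windows and show no binding.

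Bcl9 fell, and its relative Bcl9l did not pass the test. BCL9 and BCL9L are the adaptors that tie β-catenin to Pygopus. The brightest Bcl9 probe set read 38.6, 25.2 and 28.7 on the control arrays and 13.3, 18.2 and 19.1 on the mutant arrays. The groups did not overlap, but control replicate 1 stood above and mutant replicate 1 below the rest of their groups. The mutant level was 54.7% of the control level, with a log2 fold change of -0.87 (95% interval -1.31 to -0.42, adjusted p = 0.0265 from limma). The second Bcl9 probe set was tighter, at 21.6, 23.0 and 20.5 in the controls and 11.8, 13.9 and 12.7 in the mutants. All its mutant values, and that of mutant replicate 1 on the brightest probe set, lay under 16, where changes can be understated. Its log2 fold change was -0.77 (95% interval -0.98 to -0.55, adjusted p = 0.00292 over all probe sets).

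The call of Bcl9 on its brightest probe set was lost without control replicate 1 (-0.70, adjusted p = 0.0793), control replicate 3 (-0.91, adjusted p = 0.0635), mutant replicate 1 (-0.71, adjusted p = 0.0533) or mutant replicate 2 (-0.93, adjusted p = 0.0703). Blocking on the replicate number ended it too (adjusted p = 0.0571), as did a floor of 16 (-0.78, adjusted p = 0.122). The methods' t-test also ended it (adjusted p = 0.158, the highest of 17 alternatives). With the mean of the Bcl9 probe sets the call was kept (-0.82, adjusted p = 0.00637, the lowest of the 17). Bcl9l had intensities of 42.2, 46.1 and 46.6 in the controls and of 47.3, 46.0 and 43.9 in the mutants. Its log2 fold change was 0.03 (95% interval -0.16 to 0.21, adjusted p = 0.885), and its 2 other probe sets lay under 16.

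**Figure D2:**
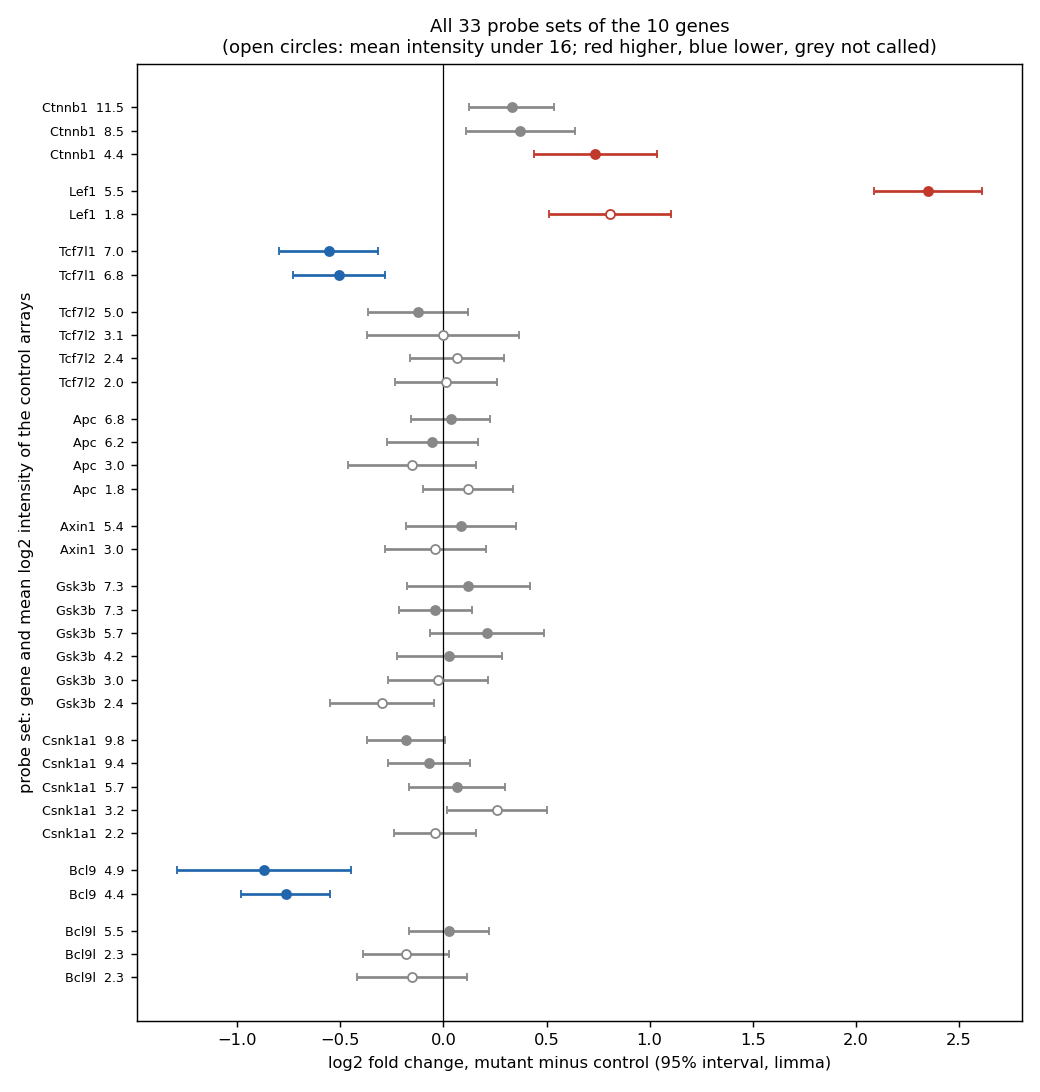
Each point is 1 of the 33 probe sets, at its log2 fold change (x axis) with the 95% interval, ordered by gene and then by brightness (y axis, with the mean log2 intensity of the controls); calls are from limma over all probe sets. The probe sets of Lef1, Tcf7l1 and Bcl9 are all coloured, 1 of 3 for Ctnnb1 is, and those of the other 6 genes are grey with values between -0.30 and 0.26.

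None of the 4 destruction complex genes was called by limma, and at an unadjusted p under 0.05 none was higher and 1, Csnk1a1, was lower (the methods' test gave the same counts). The scaffold Apc had intensities of 108.9, 118.5 and 111.4 in the controls and of 110.0, 120.3 and 116.9 in the mutants. Its log2 fold change was 0.04 (95% interval -0.15 to 0.22, adjusted p = 0.832). The other scaffold, Axin1, had intensities of 42.7, 48.2 and 36.6 in the controls and of 44.3, 48.4 and 42.0 in the mutants. Its log2 fold change was 0.09 (95% interval -0.19 to 0.36, adjusted p = 0.712). For both scaffolds the groups overlapped, and these intervals leave out a change as large as that of Bcl9 or Lef1.

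Of the kinases, Gsk3b had intensities of 128.7, 185.3 and 153.4 in the controls and of 165.7, 173.2 and 164.1 in the mutants. The mutant arrays all lay within the range of the controls, and the log2 fold change was 0.12 (95% interval -0.19 to 0.43, adjusted p = 0.633). A second Gsk3b probe set of nearly the same brightness was much tighter (log2 SD 0.0092 in the controls and 0.028 in the mutants), and had a log2 fold change of -0.04 (95% interval -0.22 to 0.14, adjusted p = 0.845 over all probe sets). Csnk1a1 had intensities of 859.2, 901.1 and 829.6 in the controls and of 735.9, 787.1 and 760.8 in the mutants. Here too the groups were apart, with all mutants lower, but the log2 fold change of -0.18 did not pass the test (adjusted p = 0.189, and 0.0981 to 0.968 over 17 alternatives). Its other 4 probe sets were at -0.07, 0.06, 0.26 and -0.04, so the mean over its probe sets was 0.01.

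Over all 33 probe sets, every mutant array lay above every control array for 6 (12.3% of all probe sets) and below for 6 (12.8%). Those above were the 3 of Ctnnb1, both of Lef1 and a dim 1 of Csnk1a1, and those below were both of Tcf7l1, both of Bcl9, the brightest of Csnk1a1 and the dimmest of Gsk3b. Of the 33, 13 had a mean intensity under 16, and of these only the dim Lef1 probe set was called.

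The mutant arrays did not rank alike for each called gene. On the 3 probe sets of Ctnnb1 and both of Lef1 and Tcf7l1, mutant replicate 1 lay nearest the control mean. For Lef1 it was 2.21 above that mean on the log2 scale, against 2.52 and 2.32 in mutant replicates 2 and 3. For Tcf7l1 it was at -0.38 on both probe sets, against values from -0.49 to -0.72 on the other mutant arrays. For Bcl9 the order was turned, and mutant replicate 1 lay farthest from the control mean, at -1.20 and -0.87 on its probe sets. With 3 arrays a group these orders are a description.

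**Figure D3:**
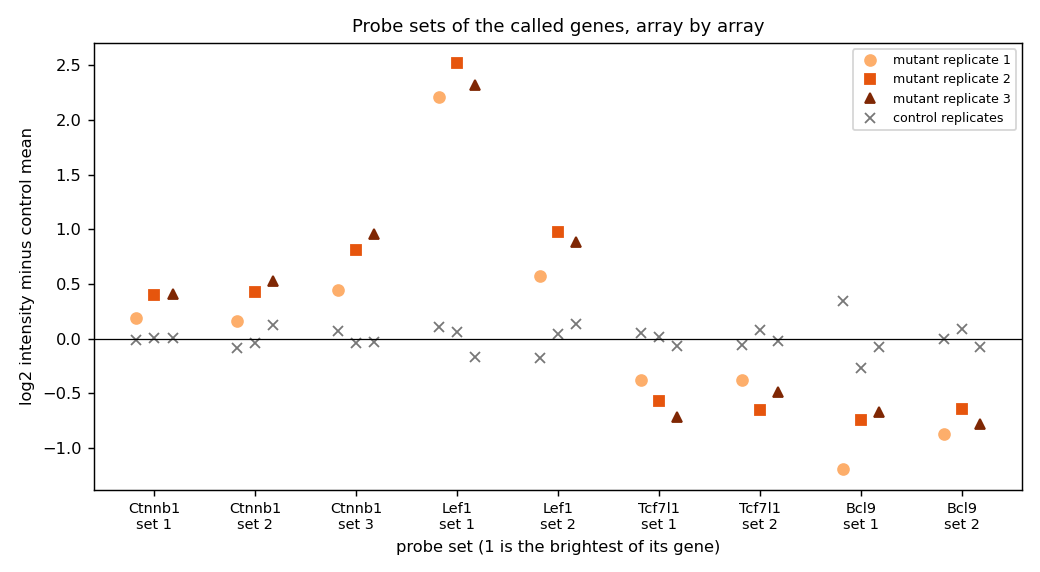
Each symbol is 1 array at its log2 intensity minus the mean of the 3 control arrays (y axis), for the probe sets of the 4 called genes (x axis, brightest first); crosses are controls, and the orange to brown symbols are mutant replicates 1 to 3. Mutant replicate 1 lies nearest 0 for Ctnnb1, Lef1 and Tcf7l1 and farthest from 0 for Bcl9.

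The 53 other measured genes of the pathway, of 57 listed, gave 6 higher and none lower genes (limma; at an unadjusted p under 0.05, 10 were higher and 7 lower, and after adjustment the methods' test called 1 higher and none lower). These shares stand against 5.61% higher and 6.36% lower over all genes, and the median log2 fold change of the list, -0.01, was that of all genes.

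Among 19 further genes of the destruction complex and β-catenin turnover, 3 rose, none fell and 16 were not called, with a median of 0.03. Axin2, the inducible relative of Axin1 and a direct target of the pathway, had intensities of 76.5, 61.2 and 58.8 in the controls and of 348.5, 451.9 and 401.1 in the mutants. This is 6.12-fold, or a log2 fold change of 2.61 with a standard error of 0.14 (adjusted p = 0.000107), and the call held in all 17 alternatives. Skp1, a subunit of the ubiquitin ligase that receives phosphorylated β-catenin, rose by 0.47 (standard error 0.09, adjusted p = 0.0143). It was no longer called without control replicate 1 (0.43, adjusted p = 0.069) or mutant replicate 2 (0.45, adjusted p = 0.0527). Its second probe set was at 0.29 and not called (adjusted p = 0.178 over all probe sets). Csnk1e, a casein kinase 1 that also acts on Dishevelled, rose by 0.35 (standard error 0.08, adjusted p = 0.0264). It stayed called only when the array left out was mutant replicate 1 (otherwise 0.32 to 0.37, with adjusted p of 0.0714 to 0.0828), and the mean of its probe sets was 0.17.

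Among 11 nuclear coactivators, Smarca4 rose, none fell and 10 were not called, with a median of -0.05. Smarca4, the BRG1 ATPase of the SWI/SNF chromatin remodeler, had intensities of 184.7, 178.9 and 195.1 in the controls and of 254.5, 277.9 and 268.3 in the mutants. It rose by 0.52 on the log2 scale, with a standard error of 0.08 (adjusted p = 0.00768), and its second probe set read 0.68 (adjusted p = 0.00886 over all probe sets). Its call was lost in 1 of 17 alternatives, the methods' test (adjusted p = 0.0514).

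Among 15 nuclear repressors and antagonists of β-catenin, 2 rose, none fell and 13 were not called, with a median of 0.15. Tle4, a Groucho corepressor that TCF/LEF factors bind in place of β-catenin, rose from 42.4, 46.9 and 37.6 to 53.3, 58.8 and 59.9, which is 0.44 in log2 with a standard error of 0.10 (adjusted p = 0.0339). Its call was kept without control replicate 2 and without mutant replicate 1 but was lost on dropping any 1 of the other 4 arrays (0.36 to 0.45, with adjusted p of 0.0837 to 0.109), and the mean of its probe sets was 0.18. Nlk, a kinase that phosphorylates TCF/LEF factors, rose by 0.47 (standard error 0.12, adjusted p = 0.0429), and lost its call in 11 of 17 alternatives, among them dropping any control array or mutant replicate 2 or 3 (0.38 to 0.52, with adjusted p of 0.0758 to 0.131). With all probe sets adjusted together, the brightest of Nlk had an adjusted p of 0.0523. The others were at 0.68 (adjusted p = 0.0191) and 0.38 (adjusted p = 0.334).

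None of 8 Dishevelled, FRAT and casein kinase 1γ genes was called by limma (median -0.08), and at an unadjusted p under 0.05 none was higher and 1, Csnk1g1, was lower, with the same counts by the methods' test. Csnk1g1, a kinase of the Wnt coreceptor, had the smallest p of this list, at a log2 fold change of -0.25 with a standard error of 0.10 (adjusted p = 0.146).

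**Figure D4:**
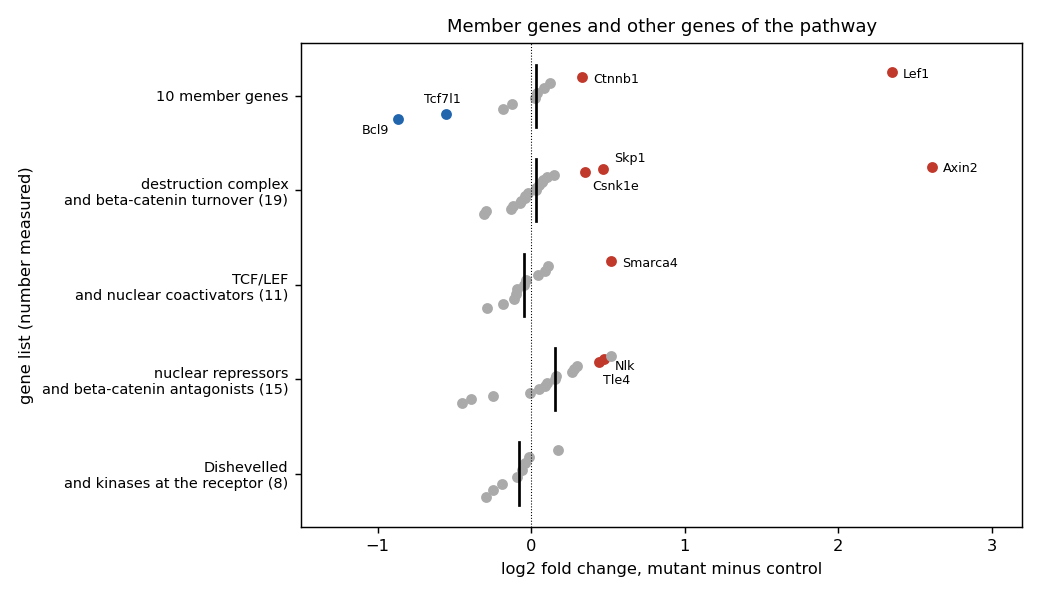
Points are genes, placed on the x axis by the log2 difference between mutant and control and on the y axis by list (measured genes in brackets); red points were called higher, blue ones lower and grey ones not, and vertical bars give the medians. Lef1 (2.35) and Axin2 (2.61) stand apart, and the list medians lie between -0.08 and 0.15.

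The genes whose log2 intensities followed Lef1 most closely over the 6 arrays, among 10252 others with a mean of at least 4, were Notum, Pkig, Get3, Rgcc and Extl3, with Pearson's r of 0.9996 to 0.9988. All were higher in the mutant, by 5.88, 0.98, 0.41, 2.63 and 1.53. Closest to Ctnnb1 were Ublcp1, Susd6, Mcc, Col8a1 and Ing3 (r of 0.9975 to 0.9949), with log2 fold changes of 0.34, 0.63, 0.76, 1.48 and 0.18. The first 4 were called higher and Ing3 was not (adjusted p = 0.198). These arrays share their genotype groups, so such values of r are a description. Genes that follow Lef1 this closely must also share its direction, so that direction is no separate result. Notum and Col8a1 had control means of 3.41 and 3.85, and met the minimum of 4 only through the mutant arrays.

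Other cell types and the cell cycle moved with the groups in part. The summed intensity of 5 adipocyte markers was 157.4 to 1287.6 in the controls and 2189.1 to 3268.4 in the mutants, with 2 of the 5 called higher. That of 7 cell cycle genes was 708.3 to 1702.2 and 1904.3 to 2074.8, with control replicate 2 lowest and 1 of 7 called higher. That of 6 stromal markers was 18771.3 to 19125.0 and 16123.9 to 17892.8, with none called (limma; 3 were lower at an unadjusted p under 0.05, and 2 by the methods' test). The sum of 5 natural killer cell markers was 74.4 to 105.8 and 172.0 to 251.4, with 1 higher and 1 lower. The higher was Gzma (log2 fold change 2.73, adjusted p = 0.000494 from limma), from 20.3, 26.8 and 20.0 in the controls to 130.7, 202.8 and 119.8 in the mutants. The lower was Ncr1 (-0.54, adjusted p = 0.0469), and Prf1 (0.48), Eomes (0.01) and Nkg7 (-0.56) were not called. The sum of 7 epithelial markers was 4433.0 to 5169.1 and 3177.2 to 4479.1, overlapping but lower on average (0.763 times the control mean), and of the 7 only Krt18 was called, lower by limma (-0.80, adjusted p = 0.00584). The sum of 5 endothelial markers was 513.1 to 531.5 and 442.8 to 532.8, also overlapping, with only Tek called, lower (-0.85, adjusted p = 0.0282). The sums of 6 smooth muscle and 4 leukocyte markers overlapped as well, with none called (limma; at an unadjusted p under 0.05 no smooth muscle marker and 1 leukocyte marker, lower, passed, and by the methods' test 1 smooth muscle marker, higher, and 1 leukocyte marker, lower). Of these lists, 2 of the 5 natural killer cell markers and 1 of the 5 adipocyte markers lay below 16 on all 6 arrays. The part of these cell types in the changes of the 4 called members was not tested. With control replicate 2 and mutant replicate 1 both left out, a setting added once the data had been seen, Lef1 (2.45), Tcf7l1 (-0.64) and Bcl9 (-0.84) were still called and Ctnnb1 was not (0.40, adjusted p = 0.0662).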

How the data were processed

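Uterine RNA was read on Affymetrix mouse arrays. The authors deposited a linear intensity for each probe set on each array, made with RMA according to the submitters' processing notes, a method that corrects background, normalizes by quantiles and summarizes the probes of a set. The version of RMA and any filter were not given in the sources used here. Arrays were grouped and numbered by the sample titles. Log2 was taken after a floor of 1, which changed 0 values. A gene's probe sets are those to which GEO's platform annotation gives its symbol alone.

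The 2 groups were compared in R 4.3.3 by limma 3.58.1 (lmFit and eBayes without covariates). The Benjamini-Hochberg adjustment ran over 18193 genes, each represented by its brightest probe set, and a second fit ran over all 45037 probe sets. The threshold was an adjusted p under 0.05. The steps were tested on simulated data. Named are the 10 members, Axin2, at most 3 called genes of each other list with the largest change (the gene with the smallest p where none was called), and the 5 genes closest in profile to Lef1 and to Ctnnb1. Any gene named beyond these was chosen after its values were seen. The members and lists were chosen with earlier results of these data known. The alternatives were other scalings, gene summaries, filters, a floor, weights for arrays, a trend with intensity, blocking on the replicate number, the methods' t-test and leaving out each array. The p-values of that t-test were adjusted in the same way, an adjustment that the paper does not name for its own array calls. The replicate numbers only name samples, so they were not taken as pairs. Same-numbered arrays had deviations from their group means that correlated at 0.01, 0.21 and 0.16. Differently numbered arrays correlated at -0.21 to 0.11, and these values do not decide whether the arrays were paired. At most 2.11% of probe sets had the same value on any pair of arrays. The number of arrays limits the precision.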

Additional observations from a re-analysis of the deposited data

How the results depend on the processing

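Lef1 and Axin2 kept their calls in all 17 alternatives, and the 6 members that did not pass the test passed in none. Of the 10 members, 2 were called higher, and 1 was with arrays centred on their medians, with every probe set adjusted together, with a floor of 16, with the methods' t-test, with the replicate block, with control replicate 2 and mutant replicate 1 both dropped, and at the lowest on leaving out single arrays (1 to 2); the lost call was that of Ctnnb1. The 2 lower members became 0 with a floor of 16 and with the methods' t-test, 1 with the replicate block, and 0 to 2 without single arrays. Of the other pathway genes, 6 were higher, against 3 with the replicate block, 1 with the methods' t-test and 2 to 7 without single arrays. None was lower, against 1 with quantile normalization, 2 with the lowest 40% left out, 3 with an intensity trend, 4 with array weights, 1 with those 2 arrays both dropped, and 0 to 1 without single arrays. The cause of these shifts was not tested. Among all genes 1021 were higher and 1157 lower, 283 and 243 with a floor of 16, 105 and 39 with the methods' t-test, 480 and 372 when control replicate 1 was dropped, and 580 and 493 when mutant replicate 2 was. The lower count was 682 with control replicate 2 dropped and 760 with mutant replicate 3 dropped. Signal limits the dim probe sets, as 13 of 33 lay under 16 on average.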
